A study of Arabidopsis thaliana and Zea mays with 12 samples.

Results

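The 10 genes described here encode enzymes that build starch in the chloroplast or break it down, and they were chosen by gene ID from the 27411 genes of the wild-type expression table. They are ADG1, APL1, APL3, GBSS1, SS1 and SS4, which act in synthesis, and GWD1, BAM1, BAM3 and DPE2, which act in breakdown. The rule is a list of gene IDs with no level in it, but the list was drawn up with earlier results of these data known, so the counts below describe these genes and are no independent sample. All 10 genes were in the table. The series holds 12 samples on the DNA modification 4acC, and the 2 with values used here are mRNA-seq libraries of leaves of untreated wild-type Arabidopsis plants of the Col-0 strain, 3 weeks old and grown under long days. The other 10 samples, 9 immunoprecipitations with a 4acC antibody (from Col-0, from Col-0 DNA treated with NH2OH, from the mutants met1 and rdd, and from maize B73) and 1 Col-0 input, were not analysed here. With 1 condition there is no contrast between groups, so levels, their spread over the 2 biological replicates and their order are given without tests. The sources used here do not give the hour of harvest, and RNA per cell and the number of cells that hold it cannot be told apart in whole leaves.

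Leaves store part of the carbon they fix by day as starch granules in the chloroplast and draw on it at night. ADP-glucose pyrophosphorylase (AGPase), a tetramer of small and large subunits, makes ADP-glucose, from which starch synthases extend glucan chains that branching and debranching enzymes shape. At night, glucan, water dikinases put phosphate on the granule surface, beta-amylases release maltose from it, and maltose leaves the chloroplast to be used by a glucanotransferase in the cytosol. Transcripts of many of these genes are known to follow a daily rhythm in Arabidopsis leaves.

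Levels are given as FPKM, the reads of a gene scaled by its exon length and by the total reads of its library, so that genes of different length can be compared. The low values of the table rise in equal steps once multiplied by gene length, which gave a library total of 93100036 reads for replicate 1 and 105573623 for replicate 2. For all 10 genes a length was found at which both replicates gave whole reads, between 275 reads for APL3 and 6665 for ADG1 in replicate 1, and between 356 for APL3 and 7749 for ADG1 in replicate 2. Counting error is given from these reads as exact Poisson 95% intervals. It covers counting only, since copies made by PCR and, if they were counted apart, the mates of a pair are not independent. The leaf genes RBCS1A and CAB1, for the Rubisco small subunit and a light-harvesting protein, averaged 24598 ± 3453 and 40786 ± 8201 FPKM (SD, n = 2). RCA, the leaf gene for Rubisco activase, averaged 383 ± 14.2 FPKM. SUC2, a marker of phloem companion cells, averaged 18.4 FPKM, the guard cell factor MYB60 2.17, the root gene PYK10 7.50 and the seed storage gene CRA1 0.00564. PYK10 stood at percentile 77.3 of all genes. The paper's RNA methods name 3-week-old plants without an organ, and the presence of root RNA was not tested.

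Short stretches of 4 promoters are shown because the letters are those of sites known from clock- and light-regulated plant promoters. The windows ran from 250 bases before to 50 bases after the annotated gene start, both strands were searched, and sequences are RefSeq's on the TAIR10.1 assembly, read along the gene with the match in capitals. The evening element AAATATCT was found in 1 of the 10 windows, that of GWD1, and in 5.72% of 26704 promoters. In GWD1 it began at -3 relative to the annotated gene start and ran past it, so it does not lie wholly upstream. The site bound by the clock factor CCA1, AAAAATCT, was found in 1, that of DPE2, where it lies on the opposite strand, and in 7.95% of all promoters. The G-box CACGTG was found in those of SS1 and SS4, where SS4 holds 2, and in 7.79% of all. The TATA box letters TATAAA were found in SS1 and BAM3, and in 52.6% of all. In SS1 they began at -23 on the gene's strand, whereas in BAM3 they began 33 bases past the annotated start, inside the gene.
GWD1 evening element (chr1:3590914-3590941, minus strand): agataaacaaAAATATCTtctgcaattc
DPE2 CCA1 site (chr2:17044865-17044892, plus strand): tggttgaaatAGATTTTTgagttgatcg
SS1 G-box (chr5:8266400-8266425, plus strand): cactaatttaCACGTGgcacaatatg
SS4 first G-box (chr4:10081994-10082019, plus strand): gcttagaataCACGTGgcgtaaccac
SS4 second G-box (chr4:10082007-10082032, plus strand): gtggcgtaacCACGTGacttttatct
These matches describe letters in a window, and binding was not measured.

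The 2 leading AGPase subunit genes stood far above the other 8. All 10 genes had a mean FPKM above 1, against 47.7% of all genes, and their median was 5.49 FPKM, against 0.823 for all genes. Genes with a mean above 1 FPKM had a higher median than the 10, at 6.76 FPKM, and 52.4% of them fell in the top 25% of all genes. The means ran from 1.61 FPKM for APL3 to 38.2 for ADG1, and 8 of the 10 lay below 8 FPKM. By mean FPKM, 4 of the 10 (ADG1, APL1, SS1 and BAM3) fell in the top 25% of genes, which began at 6.10 FPKM, with BAM3 just inside at 6.18 and BAM1 just outside at 6.08. This count was 3 in replicate 1 alone and 5 in replicate 2 alone, and with genes listed at 0 left out it was 2, ADG1 and APL1, above a boundary of 9.12 FPKM.

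**Figure D1:**
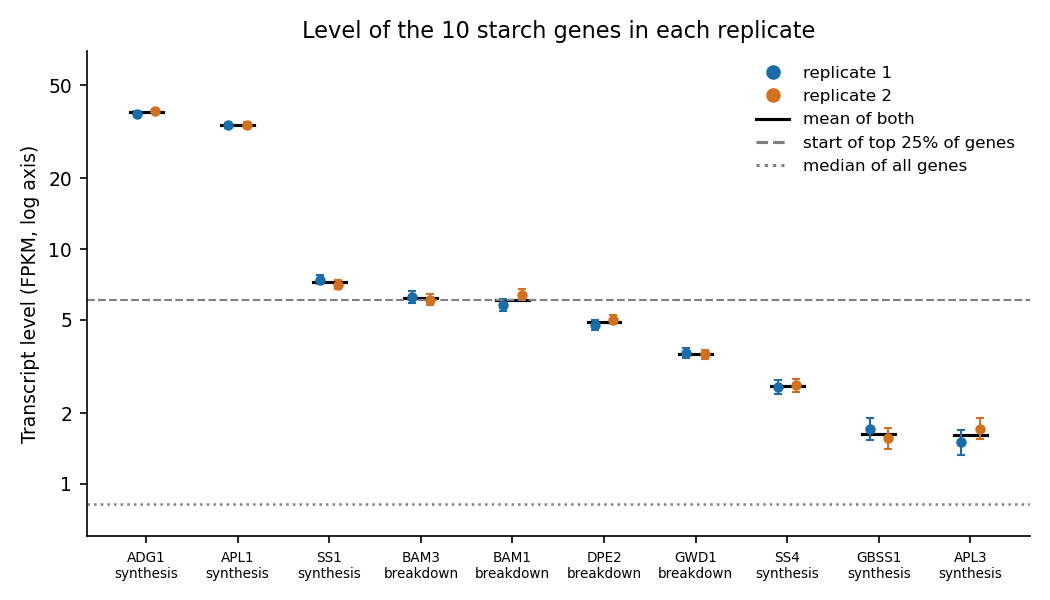
FPKM (log axis) of each of the 10 genes in replicate 1 and replicate 2, with exact Poisson 95% counting intervals, the mean of both as a bar, and the median (0.823) and the start of the top 25% (6.10) of all genes as lines. ADG1 and APL1 lie above 33 FPKM in both replicates, and the other 8 genes between 1.51 and 7.41.

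AGPase makes the ADP-glucose for starch, and ADG1 encodes its catalytic small subunit. ADG1 (AT5G48300, chromosome 5 from 19570238 to 19572804, 8 exons) was at 37.8 FPKM in replicate 1 and 38.7 in replicate 2, with a mean of 38.2 ± 0.675 (SD, n = 2), higher than 91.5% of all genes. The other small-subunit gene, APS2, was at 0.0513 and 0.00647 FPKM, from 7 reads in replicate 1 and 1 in replicate 2, so ADG1 held 99.9% ± 0.0842 (SD, n = 2) of the small-subunit sum.

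APL1 encodes the main large subunit of leaf AGPase, which carries much of the enzyme's regulation. APL1 (AT5G19220, chromosome 5 from 6463824 to 6466831, 15 exons) was at 33.7 and 33.8 FPKM, and its SD of 0.0836 was below the 0.444 that counting alone gives. APL3 (AT4G39210, chromosome 4 from 18259547 to 18263468, 15 exons), a large subunit known for its response to sugars, was at 1.51 and 1.72 FPKM, so that APL1 was 22.3-fold above it in replicate 1 and 19.6-fold in replicate 2. The remaining large-subunit genes, APL2 and APL4, averaged 1.12 ± 0.0434 and 0.981 ± 0.109 FPKM (SD, n = 2). APL1 therefore made up 90.1% ± 0.183 (SD, n = 2) of the large-subunit sum, APL3 4.31%, APL2 2.98% and APL4 2.62%. The 4 large-subunit genes summed to 37.3 FPKM in replicate 1 and 37.6 in replicate 2, and ADG1 stood at 1.01 and 1.03 times these sums, a ratio that was taken after the values had been seen. The annotation places a long noncoding RNA, AT5G19221, on the opposite strand over 2386 bases of APL1. The sources used here do not say whether the counting used strand, so reads of that RNA and of APL1 cannot be told apart.

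SS1 led the starch synthases, and the synthase that makes amylose was among the lowest. SS1 (AT5G24300, chromosome 5 from 8266566 to 8271205, 16 exons), which extends short chains of amylopectin, was at 7.41 and 7.06 FPKM with a mean of 7.23 ± 0.247 (SD, n = 2). SS4 (AT4G18240, chromosome 4 from 10082108 to 10087203, 16 exons), needed to start granules, was at 2.59 and 2.64, with a mean of 2.62 ± 0.0299 and an SD below the counting SD of 0.0882. GBSS1 (AT1G32900, chromosome 1 from 11920390 to 11923866, 13 exons), the granule-bound synthase of amylose, was at 1.72 and 1.56 FPKM. The order SS1, SS4, GBSS1 was the same in both libraries, and the replicate values of these 3 genes did not overlap. Of the other genes that the annotation names as synthases, SS2, which acts on chains of middle length, averaged 2.31 ± 0.00927 FPKM and SS3 1.23 ± 0.0812 (SD, n = 2). As shares of the sum over these 5 genes, SS1 had 48.1%, SS4 17.4%, SS2 15.4%, GBSS1 10.9% and SS3 8.15%, with SDs of 0.326 to 0.657 percentage points over the replicates. This sum leaves out AT5G65685, which was listed as SS5 but which the annotation names only as a UDP-glycosyltransferase family protein. It was at 5.44 and 5.02 FPKM, below SS1 and above SS4 in both libraries. With it in the sum, SS1 had 35.7%, AT5G65685 25.8%, SS4 12.9%, SS2 11.4%, GBSS1 8.09% and SS3 6.05%.

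Breakdown starts with GWD1, also called SEX1, which phosphorylates amylopectin. GWD1 (AT1G10760, chromosome 1 from 3580830 to 3590928, 35 exons) was at 3.62 and 3.56 FPKM with a mean of 3.59 ± 0.0384 (SD, n = 2), again below the counting SD of 0.0882. It stood at 2.01 times GWD3 in replicate 1 and 1.82 times in replicate 2, where GWD3 is the dikinase that acts on glucan already phosphorylated by GWD1. The remaining gene, AT4G24450, for which the annotation lists the name ATGWD2, was at 0.0336 and 0.0342 FPKM. GWD1 had 65.3% ± 1.61 (SD, n = 2) of the sum over these 3 genes.

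BAM3 and BAM1 encode chloroplast beta-amylases, of which BAM3 is known as the main one of the night in mesophyll and BAM1 for its part in stress and in guard cells. BAM3 (AT4G17090, CT-BMY in the annotation, chromosome 4 from 9604962 to 9607402, 4 exons) was at 6.25 and 6.10 FPKM. BAM1 (AT3G23920, chromosome 3 from 8641181 to 8644449, 4 exons) was at 5.77 and 6.40 FPKM. BAM3 was the higher of these in replicate 1 and BAM1 in replicate 2, at BAM3-to-BAM1 ratios of 1.08 and 0.953, so the pair did not differ beyond the replicate spread. BAM3 is overlapped on the opposite strand by 518 bases of a long noncoding RNA, AT4G06665, and by 13 bases of AT4G17085, a gene at 64.1 and 45.9 FPKM.

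Neither led its family of 9. BAM4, known in Arabidopsis as a chloroplast protein without beta-amylase activity, was at 8.64 and 6.95 FPKM and had 26.9% ± 3.11 (SD, n = 2) of the family sum, against 21.4% ± 0.438 for BAM3 and 21.1% ± 2.35 for BAM1. In both libraries BAM4 was above BAM3 and BAM1, and its replicate range did not meet theirs. BAM5, an extraplastidic enzyme of the phloem, averaged 2.95 ± 0.00393 FPKM, BAM2 2.00, BAM6 1.24 and BAM9 1.23. BAM8, a transcription factor with a beta-amylase domain, was at 0.981 and 1.03 FPKM, and BAM7, another of this kind, averaged 0.437, the lowest of the family.

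DPE2, the cytosolic glucanotransferase that uses exported maltose, was at 4.76 and 5.02 FPKM, with a mean of 4.89 ± 0.179 (SD, n = 2). It lies on chromosome 2 from 17044932 to 17051062 with 23 exons (AT2G40840). DPE1, the chloroplast enzyme that acts on maltotriose, was 3.71-fold above it in replicate 1 and 3.18-fold in replicate 2, and DPE2 had 22.6% ± 1.90 of the sum of the pair.

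**Figure D2:**
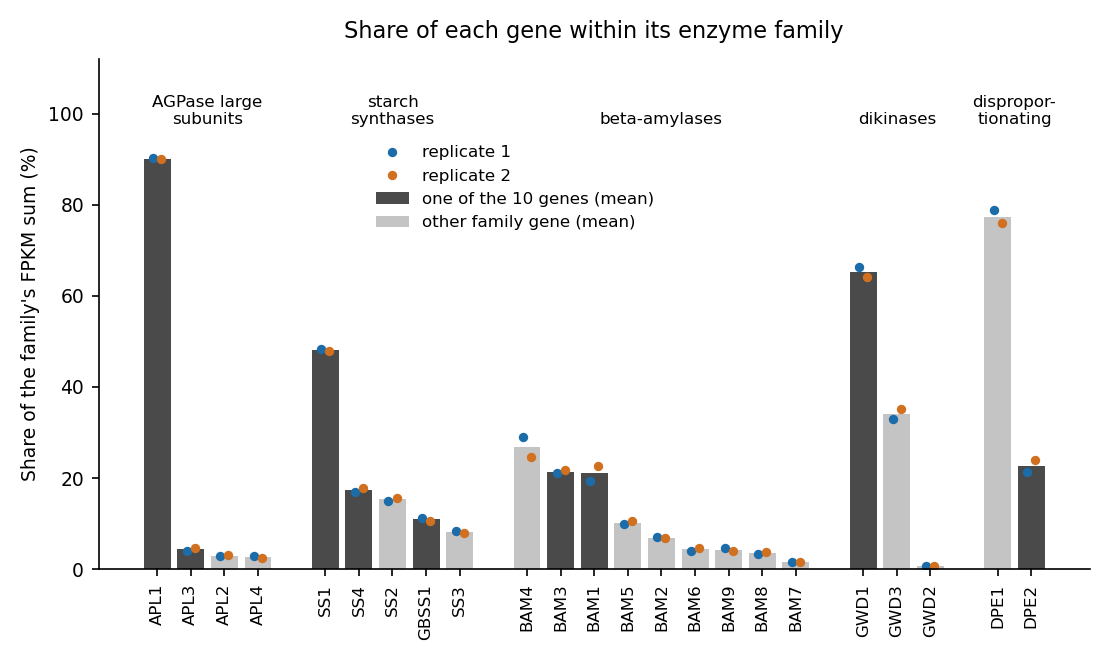
Share (%) of each gene in the summed FPKM of its enzyme family, as the mean of 2 replicates (bar) and in each replicate (points), with the 10 genes in dark grey. APL1 holds 90.1% of the large subunits, SS1 48.1% of the 5 synthases shown (35.7% with AT5G65685, which is not drawn) and GWD1 65.3% of the dikinases, while BAM4 and DPE1 stand above the beta-amylases and the disproportionating enzyme among the 10.

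Ordered by mean FPKM, the genes ran ADG1, APL1, SS1, BAM3, BAM1, DPE2, GWD1, SS4, GBSS1 and APL3. Of the 9 steps between neighbours, the replicate values overlapped in 2, BAM3 to BAM1 (1.02-fold) and GBSS1 to APL3 (1.02-fold). The widest step was the 4.66-fold one from APL1 to SS1, and the other 6 steps were 1.13-fold to 1.60-fold. The 6 synthesis genes spanned the whole range, from 1.61 to 38.2 FPKM, with a median of 4.92, whereas the 4 breakdown genes lay between 3.59 and 6.18 with a median of 5.49. Levels in this table differed with gene length, so the 10 genes were also ranked within 4 classes of annotated exon length, of nearly equal size. Of the 10 genes, 6 were in the longest class (2143 bases or more), where the median of all genes was 0.612 FPKM, and 4 were in the class from 1542 to 2142 bases, with a median of 1.72. In the longest class SS1 was at percentile 91.1, BAM1 at 89.9, DPE2 at 88.0, GWD1 at 84.3, SS4 at 79.5 and GBSS1 at 71.2. In the next class ADG1 was at 93.8, APL1 at 92.9, BAM3 at 73.5 and APL3 at 48.6, the only one of the 10 below the middle of its class.

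No large difference between the replicates was seen in the 10 genes, as in most genes of the table. After 1 FPKM was added to each value, none of the 10 was 1.5-fold or more apart, against 0.383% of all genes. Without it none was either, against 1.61% of genes with a mean above 1. With shares this small, 0 of 10 does not set these genes apart. With the added 1 FPKM, the median log2 ratio of replicate 2 to replicate 1 was 0.01, with 6 genes higher and 4 lower in replicate 2. For the 13074 genes whose mean was above 1 FPKM the median was -0.07 on that scale, with 4147 higher and 8927 lower in replicate 2. Relative to that median 9 of the 10 were higher in replicate 2, with GBSS1 at -0.01 as the exception. The same held for 6537 of the 13074, as a median requires. Over all 27411 genes, 8761 were higher and 13779 lower in replicate 2, and 19236 were higher relative to the median of -0.07. Without the added 1 FPKM, the median absolute log2 ratio of the 10 was 0.05, against 0.14 for genes above 1 FPKM. Neither value was centred, and the ratios of genes above 1 FPKM had a median of -0.09 on this scale. The widest ratio of the 10 was that of APL3 at 0.19, from 275 and 356 reads, with a counting interval of -0.04 to 0.42. Set against the median of genes above 1 FPKM on this scale (-0.09), the counting interval lay above it for 5 genes (ADG1, APL1, APL3, BAM1 and DPE2) and held it for the other 5. Set against 0, the interval lay above for BAM1 (0.15, from 0.04 to 0.26) and held 0 for the other 9. Neither count was made over all genes, so they do not set the 10 genes apart. With 1 library on each side, these intervals compare the libraries and not plants.

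**Figure D3:**
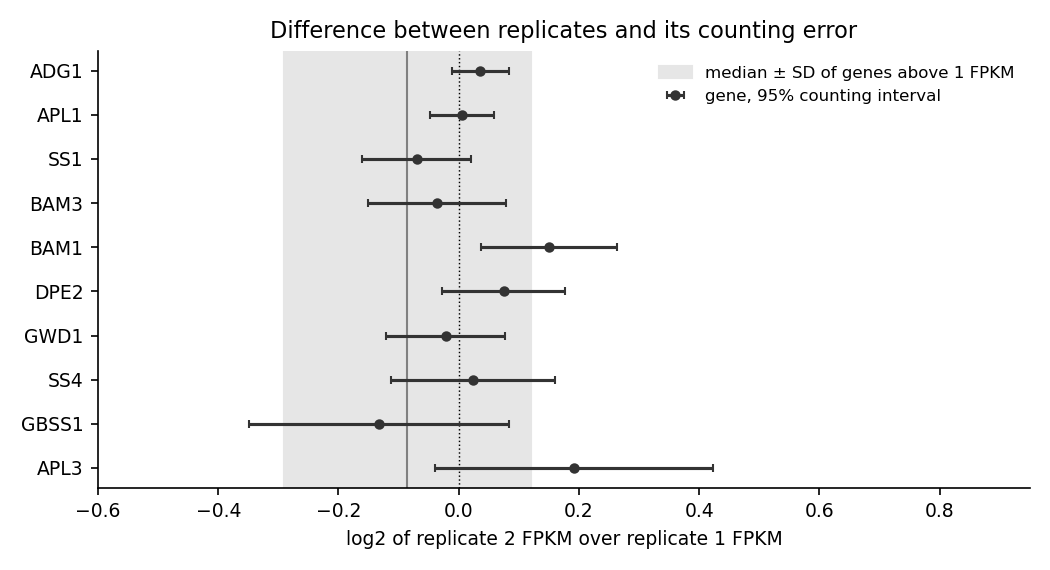
The log2 ratio of replicate 2 FPKM to replicate 1 FPKM without a pseudocount for each of the 10 genes, with exact binomial 95% counting intervals, beside the median (-0.09, grey line) and SD (0.21, grey band) of genes with a mean FPKM above 1. The intervals of ADG1, APL1, APL3, BAM1 and DPE2 lie above the grey line and those of the other 5 genes include it, while the interval of BAM1 alone lies above 0. These counts were not made over all genes.

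The other genes of the pathway, taken from a list of 13 for synthesis and 22 for breakdown and export, spread more widely than the 10. In synthesis, 10 of 13 (76.9%) were above 1 FPKM, against 47.7% of all genes, and 3 of 13 (23.1%) in the top 25%. The median of these 13 was 2.23 FPKM. The highest were PGM1, which makes glucose 1-phosphate in the chloroplast, at 18.5 ± 1.09 FPKM (SD, n = 2), PGI1, which feeds it with glucose 6-phosphate, at 8.53 ± 0.379, the debranching enzyme gene ISA1 at 8.13 ± 0.0511, and MFP1, a thylakoid protein that places granule initiation, at 5.94 ± 1.23. The values of MFP1 were 5.07 in replicate 1 and 6.81 in replicate 2. The lowest were APS2, given above, and BE1 at 0.159 and 0.178 FPKM.

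In breakdown and export, 18 of 22 (81.8%) were above 1 FPKM, against 47.7% of all genes, and 8 of 22 (36.4%) in the top 25%. The median of these 22 was 3.60 FPKM. The glucose exporter gene GLCT was at 49.4 and 45.2 FPKM, above ADG1 in both libraries. DPE1 followed at 16.8 ± 1.21 FPKM (SD, n = 2), then LSF2, a phosphatase that removes phosphate from starch, at 14.9 ± 0.484, and the maltose exporter MEX1 at 12.9 ± 1.67. Each of these 4 was above all 4 breakdown genes among the 10 in both libraries. The lowest were AT4G24450 and BAM7. Of these 35 genes, 0 were 1.5-fold or more apart between the replicates after 1 FPKM was added, where the share over all genes is given above.

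**Figure D4:**
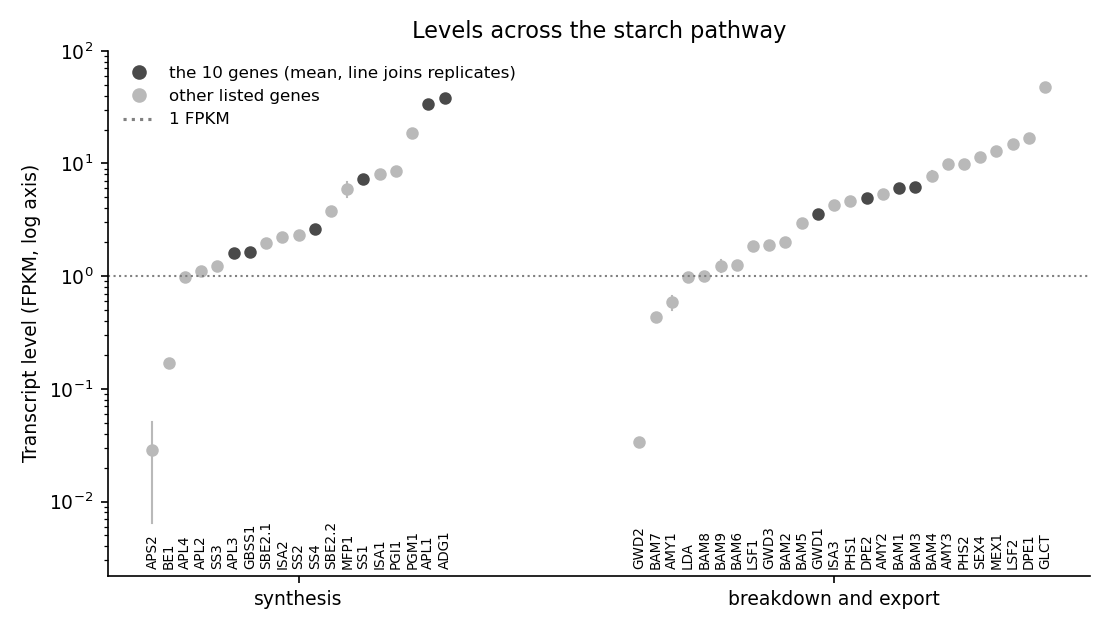
Mean FPKM (log axis) of the 10 genes (dark) and of the other listed starch genes (light), in rising order for synthesis on the left and for breakdown and export on the right, with a line between the replicate values of each gene. ADG1 and APL1 top synthesis, while GLCT at 47.3 FPKM tops breakdown and export and the 4 genes among the 10 there lie between 3.59 and 6.18.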

How the data were processed

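RNA-seq reads of both replicates were aligned by the authors to TAIR10 (TopHat 2.0.9), and Cufflinks 2.1.1 is the tool the methods name for the FPKM of coding genes in the deposited table. The submitters' processing notes list these versions too. Annotation release, strand use and the treatment of reads from several places were not described. Means and SDs were taken per gene over the 2 replicates. Ratios are of replicate 2 to replicate 1 as log2, each value raised by 1 FPKM, without a filter.

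FPKM times annotated exon length gave the value of 1 read in each library, from 218 and 214 single-transcript genes listed at 1 read. Each gene's length was then searched from 150 to 17000 bases for whole reads in both replicates (tolerance 1e-05), which succeeded for 98.8% of the 13074 genes with a mean FPKM above 1. Where several multiples were possible (GBSS1, SS1 and SS4), the one nearest to an annotated transcript was taken, and for SS1 it is not settled, so its counting interval is approximate. Such whole reads over 1 fixed length are not what Cufflinks' own estimate of transcript abundance gives, so how the FPKM values were made is not settled. The steps were tested on simulated data of whole reads over each gene's longest annotated transcript. Such data have the form that the steps assume, so this test could not show whether that form holds for the deposited values.

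The 10 genes and the lists were chosen with earlier results of these data known. Genes are named if they are among the 10, share a family with one, or are among the 4 highest or 2 lowest of a list. SBE2.2, SBE2.1, SUS1, TPS1 and SPP2 are named besides, to show what the lists hold or leave out. IDs were checked against names in the TAIR10.1 annotation, and 5 of 61 without a match were left out. Among these, AT5G65685 stood in the planned starch synthase sum, so shares are given without and with it. With 2 libraries of 1 condition, no likeness of pattern between genes was computed. Alternatives were other pseudocounts, level filters, TPM scaling, centred ratios and each replicate left out. Software was scipy 1.17.1, pandas 2.3.3, numpy 2.4.6 and matplotlib 3.10.9 under Python 3.11.15.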

Additional observations from a re-analysis of the deposited data

How the results depend on the processing

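No paired analysis was possible because both libraries belong to the same condition. Of 38 alternatives over 9 results, 33 left the value within the replicate spread, or the count within 1.5 times. For the median log2 ratio, the spread was the SD over the 10 genes instead. A mean of 2 replicates cannot move past their SD when 1 is left out, so those cases decide nothing for the shares and the ADG1 ratio. Filters that removed none of the genes a value was taken from decide nothing either. With genes listed at 0 left out, the top 25% began at 9.12 FPKM and held 2 of the 10 genes. With genes of 1 FPKM or less left out, APL1 had 92.5% of the large-subunit sum and ADG1 stood at 1.05 times that sum, since APL4 then drops out. With AT5G65685 counted as a starch synthase, added after the data were seen, GBSS1 had 8.09% of a larger sum. The median of the 10 genes, taken over gene means, is not such a mean of 2 replicates. It was 5.49 FPKM, and 5.26 with replicate 2 left out, a move past the replicate spread. With replicate 1 left out it was 5.56, within that spread. No gene of the 10 was at least 1.5-fold apart with a pseudocount of 0.1, 0.01 or none, and the median log2 ratio was 0.01 in each case and 0.08 after centring. Recovered reads limit the precision most for APL3 and GBSS1.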

Other observations

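Sucrose synthesis in the cytosol takes its carbon from the chloroplast beside starch. A list of 11 genes of this pathway or linked to it was looked up, and it includes TPT, SUS1 and TPS1. Of the 11, 6 (54.5%) were above 1 FPKM, against 47.7% of all genes, and 3 (27.3%) were in the top 25%. Both shares are near those of all genes. The median of the list was 2.08 FPKM. TPT, the triose phosphate exporter of the chloroplast, was at 1012 FPKM in replicate 1 and 943 in replicate 2. CFBP, the cytosolic fructose-1,6-bisphosphatase, averaged 48.5 ± 4.24 FPKM (SD, n = 2), and UGP1 and UGP2, which make UDP-glucose, 22.1 ± 0.687 and 4.73 ± 0.266. The lowest were SPS3F, a sucrose phosphate synthase gene, at 0.0217 and 0.0300 FPKM, and the sucrose phosphatase gene SPP1 at 0.0317 and 0.0210. SPP2 was among the IDs left out for want of a matching name, so SPP1 does not stand for this step as a whole.

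The deposited FPKM of 12916 of the 13074 genes with a mean above 1 came out as whole reads over 1 fixed gene length and 1 library total. For 3 of the 10 starch genes (APL1, GWD1 and SS4) that length equals an annotated TAIR10.1 transcript. For SS4 the multiple nearest to an annotated transcript was taken, so its match was favoured by that choice.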
